A study of Rattus norvegicus with 26 samples.

Results

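Neuronal and astrocytic RNA was combined at 3 stated proportions, called NA1, NA2 and NA3, and each mixture was measured on 2 oligonucleotide arrays. These 6 arrays, chosen by their titles and stated composition, are part of a set of 26 arrays of rat brain cell RNA. NA1 held neuronal RNA at a fraction of 0.25 and astrocytic RNA at 0.75, NA2 held both at 0.5, and NA3 held neuronal RNA at 0.75 and astrocytic RNA at 0.25. The number after the mixture (1 or 2) names the parent cultures. Mixture 1 was made from neuronal culture 1 and astrocytic culture 1 at every dose, and mixture 2 from neuronal culture 2 and astrocytic culture 4. All cultures were primary cultures from the cerebral cortex of newborn (P1) rat pups, and the labels give neither sex, strain, days in culture nor treatment. The 4 parent cultures were also measured alone. A further 4 arrays, neuronal cultures 3 and 4 and astrocytic cultures 2 and 3, carried cultures of the same types whose RNA was in none of the 6 mixtures. The fractions are of RNA and not of cells, so a level in a mixture reports RNA content per unit of RNA.

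Neurons of the cerebral cortex fire action potentials through voltage-gated channels, release glutamate or GABA from synaptic vesicles and keep a specialised cytoskeleton of neurofilaments and microtubules. Astrocytes take up glutamate and potassium, couple to each other through gap junctions and, unlike neurons, can divide in culture. Astrocytic cultures from newborn cortex are known to carry other dividing cells of the brain and its coverings, and neuronal cultures are known to carry some glia. When RNA of both is combined, each transcript is present at the fraction-weighted sum of its parents, so a transcript found in neurons alone grows with the neuronal fraction on the linear scale and bends on the log2 scale.

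Expression is given throughout as deposited log2 values, so 1 unit is a 2-fold difference. For each probe set a straight line on the stated neuronal fraction was fitted over the 6 arrays, with the mixture number as a block, in limma. The result is printed as the fitted NA3 minus NA1 difference ± its standard error, and a probe set was called when its Benjamini-Hochberg adjusted p over all 31042 probe sets was under 0.05. Where 6 values are given, they are NA1, NA2 and NA3 in that order, with mixture 1 before mixture 2 at each dose. Levels are compared within a gene and not between genes. Since the doses of a mixture share their parents, they are dilutions of the same RNA and not separate cultures, and the p-values measure the spread of these arrays around 2 parent pairs.

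The parents matched their labels on defining markers. Snap25, a vesicle fusion protein of neurons, was at 12.57 and 12.55 in the neuronal parents and at 3.45 and 3.65 in the astrocytic parents. Gfap, the intermediate filament of astrocytes, was at 13.73 and 12.04 in the astrocytic parents, and at 10.37 and 11.34 in the neuronal parents. Both neuronal parents thus held Gfap RNA, at levels below those of their astrocytic partners. Over 15 astrocyte identity genes the means were 10.80 and 9.68 in the astrocytic parents, and 7.37 and 8.08 in the neuronal parents. The pair of mixture 2 was thus closer together than that of mixture 1 on these genes. Array medians lay between 5.33 and 5.38 in the mixtures and between 5.26 and 5.30 in the parents.

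The NA3 arrays stood apart from NA1 and NA2 in how far they followed their neuronal parents. This was seen in 69 probe sets that were higher in both neuronal parents than in both astrocytic parents. These differed by at least 1 unit between the neuronal parents and by at most 0.5 between the astrocytic parents. Their mixture 2 minus mixture 1 difference had the parents' sign for 62 at NA1 and for 61 at NA2. At NA3, where neuronal RNA was most abundant, the difference had that sign for 24. The other mixtures made from the same neuronal parents followed them for 64 (with oligodendrocytic RNA added, called NAO) and 65 (with oligodendrocytic and microglial RNA added, called NAOM). The same rule with the 2 types exchanged gave 1177 probe sets that were higher in, and differed between, the astrocytic parents. Of these, 1142 followed their parents at NA3, against 1143 at NA1 and 1149 at NA2. Counts of called probe sets, and those of most falling and some rising gene lists, are therefore also given without both NA3 arrays, while the slopes of single genes include NA3.

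**Figure D1:**
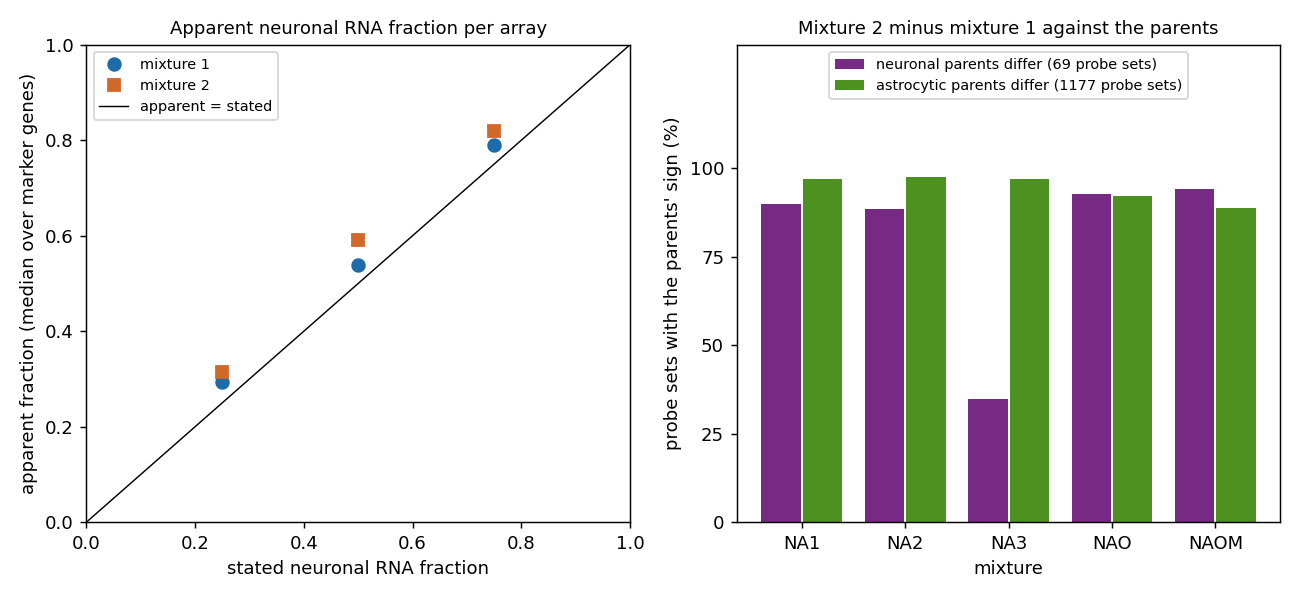
Left, the neuronal fraction estimated from marker genes (vertical axis) against the stated neuronal RNA fraction (horizontal axis), 1 point for each of the 6 arrays. Right, the percentage of probe sets whose mixture 2 minus mixture 1 difference had the sign of the parents, by mixture and by the parents that differed. The NA3 bar for neuronal parents is the low one, 24 of 69 probe sets.

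The dose moved a large part of the transcriptome in both directions. A slope on the neuronal fraction was called for 7503 of 31042 probe sets (24.2%), of which 3874 rose (12.5%) and 3629 fell (11.7%). With 1 probe set for each of 14217 genes, 4501 were called (31.7%), of which 2061 rose (14.5%) and 2440 fell (17.2%). The median called difference between NA3 and NA1 was 0.82 for rising and -0.87 for falling probe sets. Without the block the count was 4447 (2892 rising and 1555 falling), and without both NA3 arrays it was 4121 (2285 and 1836). With NA1 of mixture 2 left out, 2503 rose. Without both NA1 arrays limma called 0 in either direction, with 4444 at an unadjusted p under 0.05.

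The direction was the same in cultures that entered no mixture. Between neuronal cultures 3 and 4 and astrocytic cultures 2 and 3, 14644 probe sets differed (47.2%), 7048 higher in neurons (22.7%) and 7596 lower (24.5%). Of the probe sets that rose along the dose, 93.3% were called higher in these neurons and 12 were called lower. Among those that fell, 94.9% were called lower and 17 higher. These shared calls made up 51.3% of the probe sets higher in the separate neuronal cultures and 45.3% of those lower.

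The steepest rises belonged to transcripts that were low in both astrocytic parents. Plcxd3 had the largest difference among genes whose 3 doses kept their order in both mixtures, with 5.76, 5.66, 6.98, 7.21, 7.66 and 7.45 on the 6 arrays. It rose by 1.85 ± 0.24 (adjusted p = 0.0023), from parents at 8.41 and 8.20 in neurons and 4.10 and 4.07 in astrocytes. Lgi1, a secreted synaptic protein known from inherited epilepsy, rose by 1.83 ± 0.23, and its values of 4.95, 5.08, 5.59, 6.32, 7.02 and 6.67 did not overlap between doses. Cpne4, a calcium-binding copine, rose by 1.80 ± 0.17, the transcription factor Pou3f1 by 1.74 ± 0.16, Coch by 1.71 ± 0.16 and the tyrosine phosphatase Ptprr by 1.68 ± 0.18. The other genes among the 12 largest rises were Bend5, Rasgef1a, Ptprdl, Pacsin1 (an adaptor of synaptic endocytosis), Asxl3 and Slc32a1 (the vesicular GABA transporter), between 1.61 and 1.65.

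The steepest falls were larger than the steepest rises. An uncharacterised transcript, LOC102548260, fell by 2.24 ± 0.22 on the log2 scale (adjusted p = 0.001), with values of 7.44, 5.79, 6.18, 4.28, 4.94 and 3.81. Ehd2, an ATPase at the neck of caveolae, gave 7.76, 8.80, 7.28, 7.23, 6.56 and 5.87 and fell by 2.06 ± 0.35 (adjusted p = 0.0062). Fam111a, a protease involved in DNA replication, fell by 2.02 ± 0.19, the prolyl isomerase Ppic by 1.98 ± 0.20, and Soat1, which esterifies cholesterol, by 1.96 ± 0.16. Each of these was below 5.5 in both neuronal parents and above 6.5 in both astrocytic parents. Cfap100, Ect2 (an exchange factor needed for cytokinesis), the matrix proteins Ogn, Fbln1 and Omd, the adaptor Bcar3 and the kinase Stk17b completed the 12, between -1.95 and -1.89.

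Genes of synaptic vesicles and release rose together. Of 18 measured members, 14 rose and 0 fell, with a median NA3 minus NA1 difference of 1.18, against a median of -0.01 over all 14217 genes. Snap25 gave 11.24, 11.29, 11.95, 11.86, 12.45 and 12.17 and rose by 1.04 ± 0.13 (adjusted p = 0.0017). Both NA3 arrays were above both NA2 arrays, and both of these above both NA1 arrays. The synapsin Syn1, a vesicle-coating phosphoprotein, gave 9.20, 9.07, 9.91, 9.93, 10.32 and 10.36 and rose by 1.20 ± 0.13 (adjusted p = 0.0013). The vesicle GTPase Rab3a (1.24 ± 0.14), the plasma membrane SNARE Stx1a (1.29 ± 0.14), the vesicle SNARE Vamp2 (1.24 ± 0.25), the active zone scaffold Bsn (1.27 ± 0.17) and Napb, which helps to take apart SNARE complexes (1.33 ± 0.15), rose by similar amounts. The 4 members without a call were Sv2b (0.03), Unc13a (0.23), Syt1 (0.86 ± 0.76) and Cplx2 (0.99 ± 0.41). Of these, Syt1, the calcium sensor of release, had different slopes in the 2 mixtures, as described further on.

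Receptors for the main transmitters rose in part. Among 15 glutamate receptor genes 8 rose and 0 fell, with a median difference of 0.95. Grin1, the obligatory NMDA receptor subunit, gave 8.03, 8.19, 8.83, 8.84, 9.42 and 9.63 and rose by 1.42 ± 0.10 (adjusted p = 0.00098). The AMPA receptor subunits Gria1 (1.22 ± 0.16), Gria2 (0.77 ± 0.17) and Gria4 (0.93 ± 0.12) rose, whereas Gria3 measured 7.52, 9.06, 7.88, 8.97, 8.22 and 8.89 and had no called slope (0.26 ± 0.19). Gria3 was instead called higher in mixture 2 by 1.10. The kainate receptor subunits Grik1 and Grik2 and the metabotropic receptors Grm3 (1.51 ± 0.24) and Grm7 (1.45 ± 0.29) rose. Grin2a differed by 1.39 ± 0.44 and did not pass (adjusted p = 0.066), with 5.08, 4.63, 6.29, 6.49, 5.91 and 6.58. Of the 9 GABA-A receptor subunit genes, 5 rose and 0 fell, with a median of 0.81. Gabra2 rose by 1.53 ± 0.17, Gabra5 by 1.39 ± 0.13 and Gabrb2 by 1.29 ± 0.14, and the other 2 were Gabrb1 and Gabrd at 0.81 each. Gabrg1, Gabrg3, Gabra3 and Gabra4 had differences between -0.09 and 0.76 without a call. Without both NA3 arrays 3 of the 9 subunit genes were called.

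Markers of inhibitory and excitatory neurons both rose. Of 12 interneuron genes 7 rose (median 1.10), and of 9 excitatory neuron genes 6 rose (median 1.27), with 0 falling in either list. Gad1, which makes GABA, gave 10.45, 10.16, 11.14, 10.87, 11.68 and 11.22 and rose by 1.15 ± 0.12. Slc32a1 rose by 1.61 ± 0.19, the neuropeptide genes Vip by 1.34 ± 0.11, Sst by 1.27 ± 0.15 and Cck by 1.09 ± 0.13. Slc17a7, the vesicular glutamate transporter of cortical neurons, gave 8.36, 8.03, 8.99, 9.06, 9.52 and 9.49 and rose by 1.31 ± 0.15. Its relative Slc17a6 rose by 1.38 ± 0.11, and Camk2a, a kinase of excitatory synapses, by 1.62 ± 0.33. Bcl11b, a transcription factor of deep-layer projection neurons, rose by 1.44 ± 0.21 and was 0.80 lower in mixture 2. Calb1, a calcium buffer, had no called slope (-0.19 ± 0.31) and separated by mixture, with 11.48, 10.99 and 10.55 in mixture 1 and 8.32, 8.78 and 8.87 in mixture 2.

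Most genes of the neuronal cytoskeleton rose. Of 15 genes of the cytoskeleton and neurite growth 14 rose, with a median of 1.08. Tubb3, the neuronal beta tubulin, gave 10.12, 9.66, 10.66, 10.33, 11.02 and 10.88 and rose by 1.06 ± 0.12 (adjusted p = 0.0014). The neurofilament genes Nefl, Nefm, Nefh and Ina rose by 1.21 to 1.47, and Dcx, which binds microtubules in young neurons, by 1.31 ± 0.12. The smallest called rises were those of Map1b (0.58 ± 0.13) and Stmn2 (0.63 ± 0.12). Stmn2, a tubulin-binding protein of growth cones, was at 13.37 and 13.33 in the neuronal parents and also at 11.78 and 9.64 in the astrocytic parents. Dpysl3, a collapsin response mediator, was the member without a call (0.25 ± 0.55).

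Channels, RNA-binding proteins and adhesion molecules of neurons rose as well. Of 14 voltage-gated channel genes 10 rose (median 1.19), and the sodium channels Scn1a (1.57 ± 0.13), Scn2a (1.26 ± 0.15) and Scn3a (1.32 ± 0.24) were among them. Scn1a gave 6.59, 6.09, 7.14, 7.05, 7.98 and 7.82, without overlap between doses. The fast potassium channels Kcnc1 (1.52 ± 0.20) and Kcnc2 (1.49 ± 0.20) rose, while Scn8a, Cacna1a and Cacna1e had differences between -0.03 and 0.16 and no call. Of 10 genes for neuronal RNA-binding proteins 9 rose (median 1.33). Rbfox3, the splicing factor detected as NeuN, gave 8.38, 8.27, 9.20, 9.32, 9.68 and 9.78 and rose by 1.40 ± 0.15, and Khdrbs2 by 1.60 ± 0.13. Nova2 was the exception (0.23 ± 0.16). Among 9 adhesion genes 6 rose, including L1cam (1.29 ± 0.20), Cntnap2 (1.29 ± 0.19) and Nrxn3 (1.32 ± 0.19), and Ncam1 and Cntn1 had slopes that differed between the mixtures.

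**Figure D2:**
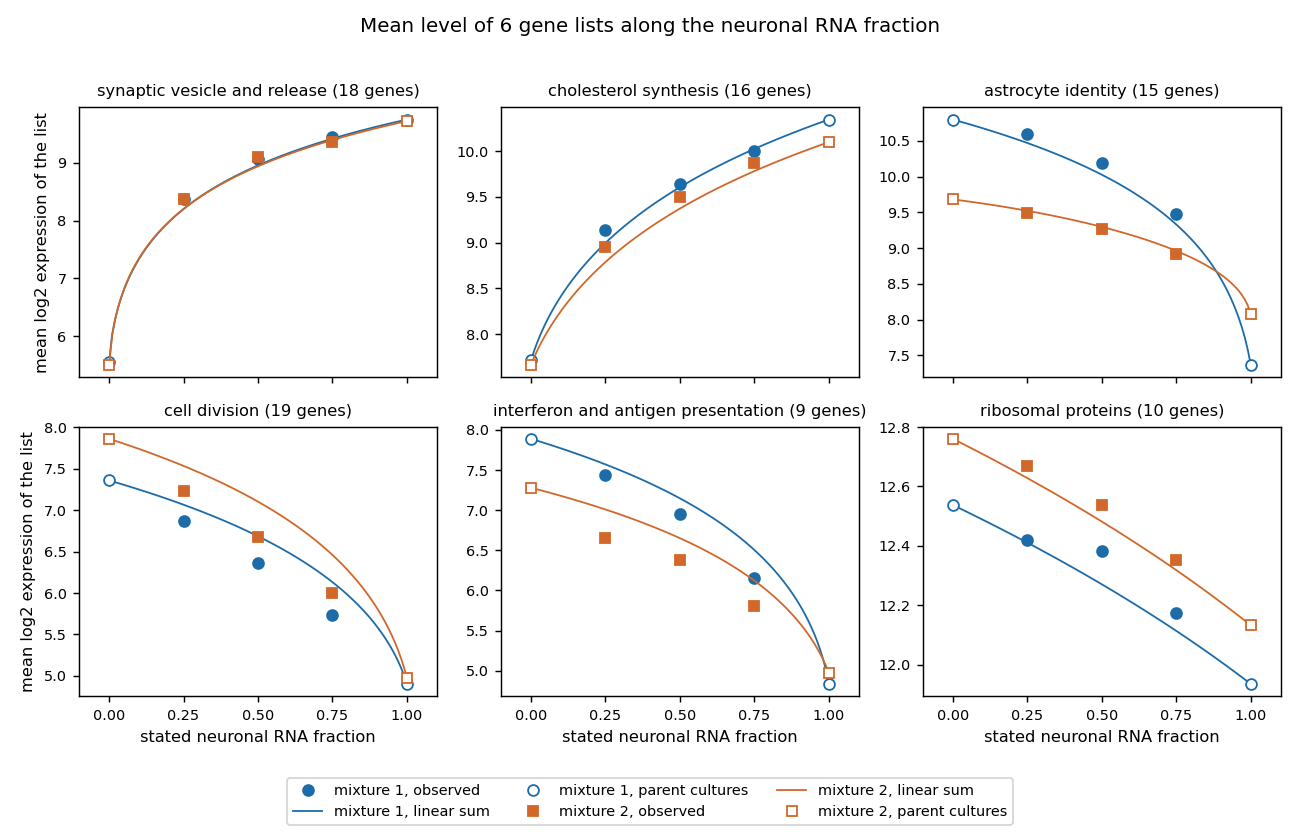
Mean log2 expression of 6 gene lists (vertical axes) against the stated neuronal RNA fraction (horizontal axes), with mixture 1 as circles and mixture 2 as squares, parents as open symbols at 0 and 1, and the linear sum of the parents as lines. Synaptic and cholesterol genes climb, astrocyte, division and interferon genes decline, and ribosomal protein genes lie between 12.17 and 12.67 on all 6 mixture arrays.

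Cholesterol synthesis was the only list of which every measured gene rose. All 16 measured genes rose, with a median difference of 0.84 and a range from 0.60 to 1.30. All 16 were also higher in neuronal cultures 3 and 4 than in astrocytic cultures 2 and 3. The pathway builds the sterol ring from acetyl units, and its genes are known targets of the transcription factor SREBP2, encoded by Srebf2. Hsd17b7, which reduces a sterol ketone late in the pathway, gave 8.05, 7.65, 8.71, 8.49, 9.36 and 8.94 and rose by 1.30 ± 0.11 (adjusted p = 0.001). Within each mixture the 3 doses kept their order. Stard4, which carries cholesterol between membranes, gave 7.53, 7.50, 8.19, 8.16, 8.68 and 8.63 and rose by 1.14 ± 0.11. Steps of the early pathway, Idi1 (1.07 ± 0.14), Mvd (1.05 ± 0.12) and Mvk (0.94 ± 0.10), and of the later pathway, Sqle (1.05 ± 0.17), Lss (0.79 ± 0.12), Cyp51 (0.75 ± 0.14), Dhcr7 (0.65 ± 0.14) and Msmo1 (0.60 ± 0.10), rose. The sensor Insig1 rose by 1.03 ± 0.11 and Srebf2 itself by 0.82 ± 0.16. Soat1, which stores cholesterol as esters, fell over the same arrays, as given above. With both NA3 arrays left out, 11 of the 16 were called, and 14 were called without the block.

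Promoters of these genes were read from RefSeq because the members move together along the dose and the pathway's promoters are known to bind the factor NF-Y beside SREBP2. The CCAAT box (CCAAT on either strand, which reads ATTGG on the other) was searched in the 250 bases before each annotated start. It was present for 11 of the 13 cholesterol genes with an entry (84.6%), against 36.1% of the 27457 genes of the table, and a second set of letters, TTTGAA, was present for 2 of the 13 (15.4%, against 17.2%). The 200 bases before the start are shown for 3 genes, with CCAAT or ATTGG in capitals, in the GRCr8 build. The genes had the largest rises among list members with a single promoter entry that held the box. Its presence in them was therefore fixed by the choice. They are Hsd17b7 (minus strand, chr13:84722755-84722954), Idi1 (minus strand, chr17:66547525-66547724) and Mvd (minus strand, chr19:67414975-67415174). A match of letters is a description and was not tested as a binding site.
Hsd17b7: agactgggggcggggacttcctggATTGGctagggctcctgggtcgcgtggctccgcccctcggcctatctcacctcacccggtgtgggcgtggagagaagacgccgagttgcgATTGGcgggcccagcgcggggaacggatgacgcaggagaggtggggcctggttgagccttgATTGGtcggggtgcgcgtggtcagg
Idi1: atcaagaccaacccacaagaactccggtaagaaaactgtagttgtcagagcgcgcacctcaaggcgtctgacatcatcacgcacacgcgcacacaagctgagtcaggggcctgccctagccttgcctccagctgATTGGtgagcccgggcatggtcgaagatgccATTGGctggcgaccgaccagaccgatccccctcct
Mvd: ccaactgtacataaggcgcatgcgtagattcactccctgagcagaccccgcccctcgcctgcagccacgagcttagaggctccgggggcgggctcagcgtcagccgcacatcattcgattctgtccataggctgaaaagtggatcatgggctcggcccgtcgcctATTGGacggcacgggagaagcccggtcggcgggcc
Hsd17b7 carries the box 3 times, the nearest copy starting 25 bases before the start. The nearest copy begins 35 bases before the start in both Idi1 and Mvd.

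Genes of astrocyte identity fell along the dose, on levels that depended strongly on the mixture. Of 15 members 10 fell and 0 rose, with a median of -0.95. Fgfr3, a growth factor receptor of astrocytes and their precursors, gave 10.01, 11.06, 9.43, 10.53, 8.21 and 9.56 and fell by 1.65 ± 0.17 (adjusted p = 0.0011). The order of doses was the same in both mixtures, although NA3 of mixture 2 lay above NA2 of mixture 1. Aldh1a1, which makes retinoic acid, fell by 1.67 ± 0.15, the gap junction gene Gja1 by 1.11 ± 0.13, and Glul, the glutamine synthetase of astrocytes, by 1.00 ± 0.16. Aqp4, the water channel of astrocyte endfeet, gave 12.44, 12.01 and 11.33 in mixture 1 and 9.73, 9.48 and 8.94 in mixture 2, and fell by 0.95 ± 0.13 (adjusted p = 0.0026). Gfap gave 13.65, 13.46 and 12.99 in mixture 1 and 11.89, 11.84 and 11.63 in mixture 2. Its difference of -0.46 ± 0.13 did not pass (adjusted p = 0.05). Slc1a2 and Gjb6 were at 3.07 to 4.78 on every mixture array and had no called slope. Dimmer probe sets of Aqp4 and of the glutamate transporter Slc1a3 disagreed, as 1 of each gene rose, by 1.30 and 1.44, against falls for the brighter probe sets that stand for these genes here. Without the block, 2 of the 15 genes were called, and 4 without both NA3 arrays.

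Reactive and progenitor genes also fell. Of 10 reactive astrocyte genes 7 fell, with a median of -1.31. Cd44, a hyaluronan receptor, gave 9.04, 9.01, 8.49, 8.44, 7.67 and 7.37 and fell by 1.51 ± 0.14 (adjusted p = 0.001), with no overlap between doses. Timp1, a metalloproteinase inhibitor, fell by 1.64 ± 0.15 and Serpina3n by 1.81 ± 0.20. The complement gene C3 fell by 1.17 ± 0.19, from 10.63 to 9.13 in mixture 1 and from 6.70 to 5.86 in mixture 2. Vim, an intermediate filament of glia and mesenchyme, was at 12.87 to 14.20 and fell by 0.59 ± 0.13. Of 14 progenitor and Notch genes 9 fell and 1 rose (median -1.15). Id1, an inhibitor of differentiation factors, fell by 1.70 ± 0.11, Pax6 by 1.62 ± 0.13, Emx2 by 1.51 ± 0.12, Notch1 by 1.34 ± 0.12 and Sox2, a stem cell transcription factor, by 1.25 ± 0.10. The member that rose was Emx1, a transcription factor of cortical excitatory neurons and their precursors, by 0.92 ± 0.13. Without the block, 3 reactive and 5 progenitor genes were called as falling, and without both NA3 arrays 6 and 8, with Emx1 not called.

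Extracellular matrix and contractile genes fell in both mixtures from very different starting levels. Of 16 matrix glycoprotein and proteoglycan genes 12 fell (median -1.27), of 15 collagen chain genes 10 (median -1.09), and of 12 smooth muscle contractile genes 10 (median -1.02), with 0 rising in any of these lists. Omd, a small proteoglycan, gave 10.12, 10.12, 9.44, 9.25, 8.30 and 8.09 and fell by 1.92 ± 0.14 (adjusted p = 0.00098). In contrast to most of its list, it differed little between the mixtures. Fibronectin, Fn1, fell by 1.31 ± 0.17, tenascin C, Tnc, by 1.51 ± 0.16, and Sparc by 1.05 ± 0.20. Col1a2, a chain of type I collagen, gave 7.69, 7.20 and 6.30 in mixture 1 and 13.06, 12.64 and 11.80 in mixture 2 and fell by 1.33 ± 0.14. The actin-binding proteins Cnn1 (1.67 ± 0.12) and Tagln (1.15 ± 0.17) and the light chain Myl9 (1.47 ± 0.15) fell by these amounts. Of 6 caveola genes 4 fell (median -1.54), with Cav1, the main coat protein, at 11.11, 12.07, 10.45, 11.64, 9.67 and 10.63. Of 10 genes of the insulin-like growth factor system 3 fell, Igfbp2, Igfbp5 and Igfbp7, to be read against the 17.2% of all genes that fell. Without the block, 3 matrix, 2 collagen and 0 smooth muscle genes were called, and without both NA3 arrays 9, 8 and 4. For the insulin-like growth factor system 1 gene was called in either case.

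Nearly all genes of cell division fell. Of 19 members 18 fell and 0 rose, with a median of -1.17, and all 19 were lower in the separate neuronal cultures. Cdk1, the kinase that drives mitosis, gave 8.50, 8.80, 7.80, 8.16, 6.68 and 7.14 and fell by 1.74 ± 0.13 (adjusted p = 0.00098). Mki67, a marker of cycling cells, gave 6.42, 6.84, 5.51, 6.14, 4.76 and 5.07 and fell by 1.71 ± 0.12. For both genes the doses did not overlap. Among the other mitotic genes, Ccna2 (1.80 ± 0.16), Bub1 (1.70 ± 0.11), Ccnb2 (1.62 ± 0.11), Top2a (1.57 ± 0.15) and Aurkb (1.40 ± 0.11) fell by these amounts. Cdc20 (1.28 ± 0.18), Aurka (1.18 ± 0.14), Ccnb1 (1.17 ± 0.20), Bub1b (0.89 ± 0.11), Birc5 (0.84 ± 0.12) and Plk1 (0.76 ± 0.11) also fell. The replication genes Mcm2 (1.17 ± 0.14), Mcm5 (0.97 ± 0.12), Pcna (0.78 ± 0.10), Mcm6 (0.76 ± 0.13) and Mcm3 (0.70 ± 0.15) fell within the range of the mitotic ones, apart from Mcm3 just below it. Tyms, which makes thymidylate, had no call (-0.34 ± 0.25). Without both NA3 arrays 10 of the 19 were called, and 12 without the block.

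The promoters of these genes are shown as a counterpart to those of the cholesterol genes, since mitotic genes are known for CCAAT boxes beside the cell cycle homology region. The letters TTTGAA were taken for that region. In the 250 bases before the start, CCAAT was present for 12 of 17 division genes with an entry (70.6%, against 36.1% of all genes). TTTGAA was present for 7 of 17 (41.2%, against 17.2% of all genes). Among the lists, only cholesterol synthesis had a higher share for CCAAT, and none had for TTTGAA. Next below came lysosome genes for CCAAT (62.5%) and microglia genes for TTTGAA (40%). Differences between lists were not tested. Both strands were searched, and 22 of the 1966 promoters in the table that held both had them overlapping. The 200 bases before the start are given for Cdk1 (plus strand, chr20:19265093-19265292), Mki67 (minus strand, chr1:199952594-199952793) and Ccnb2 (minus strand, chr8:79981659-79981858), from RefSeq in GRCr8. By the same choice, these genes had the largest falls among division genes with a single promoter entry that held the CCAAT box. Capitals mark the letters searched, and ATTGG is again the other strand of the box.
Cdk1: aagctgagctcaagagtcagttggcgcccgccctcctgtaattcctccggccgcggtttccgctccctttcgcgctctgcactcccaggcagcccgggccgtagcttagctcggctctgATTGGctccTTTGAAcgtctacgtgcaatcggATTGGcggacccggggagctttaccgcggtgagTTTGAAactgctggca
Mki67: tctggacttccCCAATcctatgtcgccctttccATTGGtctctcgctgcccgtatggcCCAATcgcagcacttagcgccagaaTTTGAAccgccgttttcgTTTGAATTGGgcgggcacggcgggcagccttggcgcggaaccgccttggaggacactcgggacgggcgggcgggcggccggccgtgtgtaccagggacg
Ccnb2: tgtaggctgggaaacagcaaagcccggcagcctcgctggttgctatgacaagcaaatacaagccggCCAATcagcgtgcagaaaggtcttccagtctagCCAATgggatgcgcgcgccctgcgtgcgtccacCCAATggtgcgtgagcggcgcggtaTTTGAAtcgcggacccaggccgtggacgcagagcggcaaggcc
In Mki67 the last 2 motifs overlap, with TTTGAA at 99 to 94 and ATTGG at 94 to 90 bases before the start. The last TTTGAA lies 16 to 11 bases before the start in Cdk1 and 43 to 38 in Ccnb2.

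Lysosomal and interferon-related genes also fell. Of 11 lysosome genes 10 fell (median -1.02). Npc2, which moves cholesterol out of lysosomes, gave 11.19, 11.44, 10.70, 10.84, 9.94 and 10.16 and fell by 1.27 ± 0.11 (adjusted p = 0.00098), with no overlap between doses. The cathepsin genes Ctsz, Ctsl, Ctsd and Ctsb fell by 0.52 to 1.37 on the log2 scale, and Psap had no call (-0.26 ± 0.15). Of 9 interferon and antigen presentation genes 8 fell (median -1.11). Gbp2, an interferon-induced GTPase, gave 9.53, 8.39, 8.82, 7.83, 7.76 and 6.55 and fell by 1.80 ± 0.16. B2m, the light chain of class I antigen complexes, gave 12.33, 12.27, 11.90, 11.75, 11.17 and 11.16 and fell by 1.13 ± 0.11, while Ifit3 stayed between 3.40 and 3.66 without a call (0.02 ± 0.11). Without the block, 5 lysosome and 2 interferon genes were called, and without both NA3 arrays 6 and 5.

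**Figure D3:**
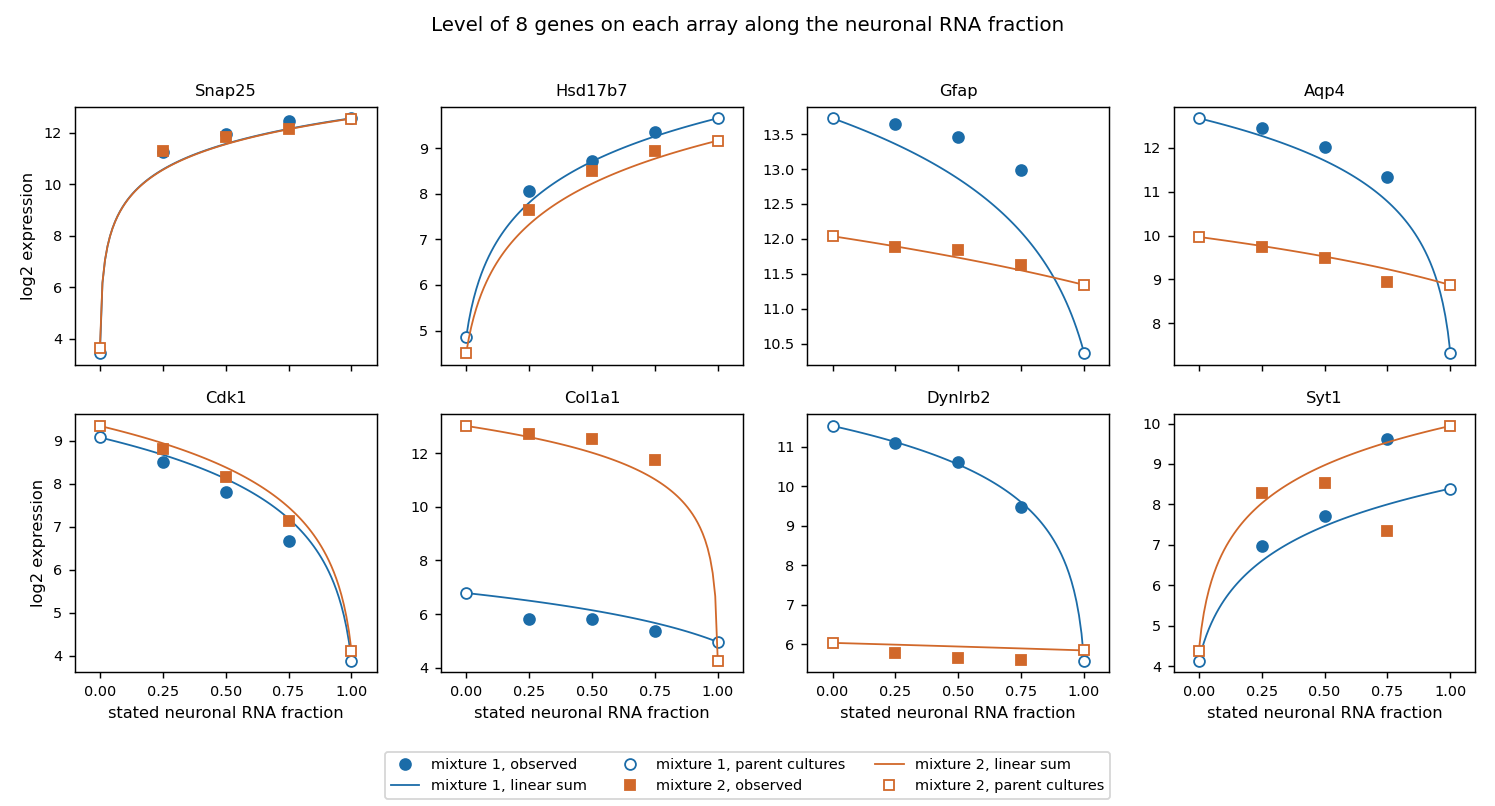
Log2 expression of 8 genes (vertical axes) against the stated neuronal RNA fraction (horizontal axes) on the 6 mixture arrays, with parents as open symbols at 0 and 1 and the linear sum of the parents as lines. Snap25 and Hsd17b7 climb and Cdk1 declines alike in both mixtures, Gfap, Aqp4, Col1a1 and Dynlrb2 are split by mixture number, and Syt1 crosses at the highest dose.

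Housekeeping classes moved little. Of 14 glycolysis genes 0 fell and 2 rose, with a median of -0.02. Those that rose were the neuronal enolase Eno2 (0.69 ± 0.11) and the platelet-type phosphofructokinase Pfkp (0.90 ± 0.11). Eno1, the widely expressed enolase, had a difference of -0.28 ± 0.11 and no call. Of 15 respiratory chain genes 3 rose, Atp5f1b (0.37 ± 0.10), Ndufa4 (0.39 ± 0.10) and Cox5a (0.52 ± 0.15), with a list median of 0.23. These 3 calls were lost without the block and without both NA3 arrays. Both counts are to be read against the 14.5% of all genes that rose. The 10 ribosomal protein genes had differences from -0.37 to -0.13, a median of -0.30 and 0 calls, and 8 were called as falling with a trended and robust variance. In the separate cultures all 10 were lower in neurons, and 13 of the 15 respiratory chain genes were higher. Of the 14 glycolysis genes, 7 were higher there and 1 lower.

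Lists for further cell types had slopes for some members, to be read against the 17.2% of all genes that fell. Of 11 oligodendrocyte genes 2 fell (Cnp and Sox10, neither called without the block or without both NA3 arrays). Mbp had no call on the probe set used here (-0.47), while 1 dimmer probe set of it rose by 0.86 and another fell by 0.77. Of 14 microglia genes Cd14 fell by 1.54 ± 0.17 and Itgam rose by 0.53 ± 0.11. The other microglial genes, with Aif1 and Tyrobp between 3.19 and 3.96, had no call. None of 8 endothelial genes was called, and their mean lay between 3.91 and 3.98 on all 6 arrays. Of 13 fibroblast and meningeal genes 2 fell, Ogn and Pdgfra, while Dcn and Lum were at 3.73 or below throughout. The part of such cells in the falling lists was not tested.

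Mixtures 1 and 2 also differed from each other at equal doses. Each mixture number is 1 pair of parents measured at 3 dilutions, so the errors and p-values below describe these 2 pairs of cultures and leave out the spread between cultures. The mixture 2 minus mixture 1 difference was called for 2533 probe sets (8.16%), 1241 higher (4%) and 1292 lower (4.16%) in mixture 2. By gene, 810 were higher (5.7%) and 882 lower (6.2%). Of the 2533, 2516 had the sign given by the linear sum of their parents (99.3%). Leaving out 1 array of NA1 or NA2 gave 833 to 1361 calls, leaving out NA3 of mixture 1 gave 4417, and leaving out both NA3 arrays 4852.

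Genes higher in mixture 2 were led by fibrillar collagens and their cross-linking enzymes. Col1a1 measured 5.82, 5.82 and 5.37 in mixture 1 and 12.72, 12.53 and 11.74 in mixture 2, a difference of 6.66 ± 0.15 (adjusted p = 8.5e-06). Its astrocytic parents were at 6.78 and 13.01, and its neuronal parents at 4.96 and 4.27. Lox, which cross-links collagen, differed by 6.33 ± 0.11 and Loxl2 by 5.55 ± 0.26. Postn, a matrix protein of fibroblasts, differed by 5.60 ± 0.40, Col1a2 by 5.44 ± 0.11, Acta1 by 4.82 ± 0.27, Col8a2 by 4.69 ± 0.10 and Col3a1 by 4.68 ± 0.17. By list, 10 of 15 collagen, 10 of 12 smooth muscle, 9 of 16 matrix and 9 of 19 cell division genes were higher in mixture 2, and 1, 0, 2 and 1 lower. Of the 13 fibroblast and meningeal genes, 3 were higher, Postn, Mgp and Twist1.

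Genes lower in mixture 2 were led by the motile cilium. All 6 measured genes of the cilium list were lower, with a list median of -3.33. Cfap100, named for cilia and outside this list, went the other way. It was higher in mixture 2 at each dose, by its values given further on. Dynlrb2, a dynein light chain, gave 11.09, 10.60 and 9.47 in mixture 1 and 5.79, 5.65 and 5.59 in mixture 2, a difference of -4.71 ± 0.25 (adjusted p = 0.00022). Foxj1, the transcription factor of motile cilia, was at 7.29 and 6.26 at NA2 and NA3 of mixture 1 and at 4.35 to 4.58 in mixture 2. The other large differences were those of Tppp3 (-4.88 ± 0.28), Efemp1 (-4.51 ± 0.19), Chrdl1 (-4.49 ± 0.20), Maob (-4.31 ± 0.26), Cfap144 (-4.05 ± 0.33), Itgb4 (-4.04 ± 0.41) and Ak7 (-3.97 ± 0.34). Of the astrocyte identity genes, 9 of 15 were lower in mixture 2, Aqp4 by 2.54, Clu by 2.40 and Gfap by 1.58 on the log2 scale, and 2 were higher (Fgfr3 and Aldh1a1). The astrocytic parents differed in the same lists. Astrocytic culture 1 had a mean of 7.47 over the collagen genes and 9.56 over the cilium genes, and astrocytic culture 4 had 9.96 and 5.07. The neuronal cultures lay between 4.99 and 5.81 for both lists. For neuronal lists the mixtures were close, and the median mixture 2 minus mixture 1 difference of synaptic genes was -0.02.

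**Figure D4:**
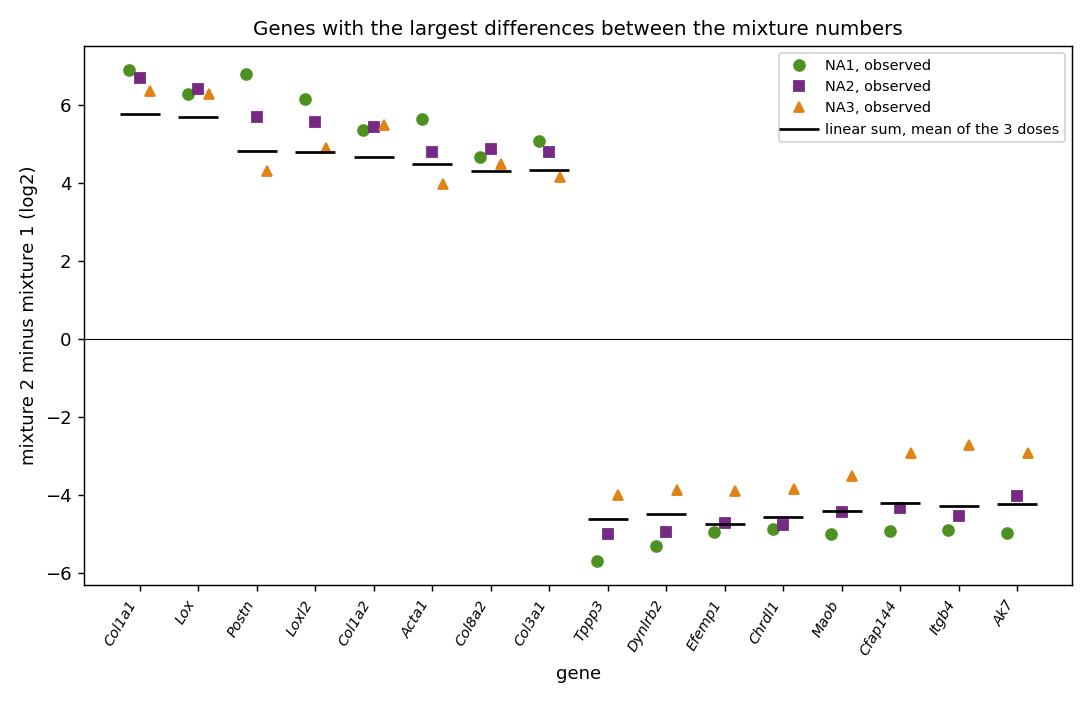
Mixture 2 minus mixture 1 difference in log2 expression (vertical axis) for the 8 genes highest and the 8 genes lowest in mixture 2 (horizontal axis), with 1 marker per dose and a dash for the linear sum of the parents. Col1a1 and Lox lie above 6 and Tppp3 and Dynlrb2 below -5 at NA1, and the cilium genes draw closer to 0 as the neuronal fraction grows.

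For some genes the slope itself differed between the mixtures. The difference was called for 1372 probe sets (4.42%), 602 higher (1.94%) and 770 lower (2.48%) in mixture 2, and for 534 genes (3.76%), 366 higher (2.57%) and 168 lower (1.18%). Of these probe sets 777 had the sign given by the linear sum and 595 the opposite, and their median size was 1.39, against 0.56 for the linear sum. Cilium genes had the sign of the sum. Ak7 fell from 8.51 to 6.46 in mixture 1 and lay at 3.53 to 3.58 in mixture 2, a slope difference of 2.06 ± 0.20 against 1.46 from the parents. Syt1 went against it. It gave 6.97, 7.71 and 9.62 in mixture 1 and 8.28, 8.53 and 7.36 in mixture 2, a slope difference of -3.57 ± 0.58 (adjusted p = 0.023) where the parents gave 0.11. Its neuronal parents were at 8.39 and 9.94, so NA3 of mixture 1 lay above its own neuronal parent. The counts depended on single arrays. The limma fit made 2 calls without NA3 of mixture 1, 0 without NA3 of mixture 2 (3419 at an unadjusted p under 0.05), 191 without NA1 of mixture 2 and 2708 without NA2 of mixture 1.

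Other genes that differed between the neuronal parents behaved in 2 ways at NA3. The serotonin receptor gene Htr2c was lower in mixture 2 by 1.12, 1.22 and 1.45 on the log2 scale at the 3 doses, with parents 1.45 apart in that direction. Cbln1, a secreted synapse organiser, was higher in mixture 2 by 1.11, 1.69 and 1.83, with parents apart by 1.43. Necab1, a calcium-binding protein of neurons, was higher by 0.97 and 0.60 at NA1 and NA2 and differed by -0.94 at NA3, with parents apart by 1.59. Kcnq3, a potassium channel, gave 0.51, 0.77 and -0.78, and Prdm8 gave 1.14, 0.84 and -1.27.

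The linear sum of the stated parents gave most levels closely. Over the probe sets of each array, observed and summed values correlated at 0.992 to 0.996, and 91.5% to 96.1% of probe sets lay within 0.5. These correlations are across probe sets, which are not independent replicates. Arrays of neighbouring doses of the same mixture number correlated with each other at 0.987 to 0.990. A correlation this high therefore says little about the sum itself. The share within 0.5 was not compared with a share expected without the sum. The median deviation was negative on every array, between -0.11 and -0.08. The 3 mixtures of a number share their parent arrays, so a deviation was tested on 2 means, and 0 probe sets were called (6543 had an unadjusted p under 0.05). With a trended and robust variance in limma 35 were called, 31 above and 4 below the sum. Of 14217 genes, 3 lay more than 0.5 from the sum on all 6 arrays in 1 direction. Ube2d1, a ubiquitin-conjugating enzyme, lay above by 0.60 on average. At NA3 it measured 8.72 and 8.63, higher than its neuronal parents at 8.41 and 8.45. Psmb8, an immunoproteasome subunit (-0.66), and Krt19, a keratin (-0.68), lay below.

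The change from NA1 to NA3 was compared with the sum gene by gene. Over all probe sets the fitted and summed differences correlated at 0.949. Marker genes were taken from the cultures outside the mixtures, as those apart by at least 3 units with an adjusted p under 0.05, which gave 452 genes higher and 459 lower in neurons. Of the first, 439 rose and 0 fell. Of the second, 425 fell and 0 rose. The rising markers had a median difference of 1.23 where the sum gave 1.38, and the falling markers -1.48 where it gave -1.31. The gap had the same sign in each mixture, with 1.20 against 1.39 and 1.28 against 1.38 for rising markers, and -1.55 against -1.36 and -1.40 against -1.31 for falling ones. From NA1 to NA2 alone, without NA3, rising markers moved by 0.71 against 0.86 and by 0.80 against 0.85 in the 2 mixtures, and falling markers by -0.58 against -0.52 and by -0.59 against -0.51. Neuronal lists lay on both sides of the sum. Synaptic genes had a median of 1.18 against 1.37 and cytoskeletal genes 1.08 against 1.47, whereas glutamate receptors had 0.95 against 0.87 and GABA-A subunits 0.81 against 0.78. Snap25 rose by 1.04 where the sum gave 1.58, Gap43 by 0.98 where it gave 1.49, Tubb3 by 1.06 where it gave 1.51 and Stmn2 by 0.63 where it gave 1.03.

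The shortfall of the rising markers grew with their level. In the 113 markers with the lowest summed level at NA2 (3.64 to 7.52) the median observed and summed differences were 1.20 and 1.21, and in the 113 with the highest (9.44 to 12.13) they were 1.18 and 1.46. For falling markers the observed difference was larger in size than the summed one at each level. The medians were -1.26 and -1.09 in the 115 lowest (4.05 to 6.81), and -1.45 and -1.26 in the next 115. They were -1.54 and -1.38 in the 114 above these, and -1.52 and -1.46 in the 115 highest (9.01 to 13.06). These medians are descriptions, and their spread over samples was not tested. Vim fell by 0.59 where the sum gave -1.40. Cell division genes lay below the sum, with a median deviation of -0.35 and a median difference larger in size than that of the sum. The median deviation was -0.11 over all genes and -0.25 over the markers lower in neurons. Collagen, interferon and ribosomal protein genes had median NA3 minus NA1 differences within 0.01 of those of the sum. In level, the interferon genes also lay below the sum, with a median deviation of -0.29.

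**Figure D5:**
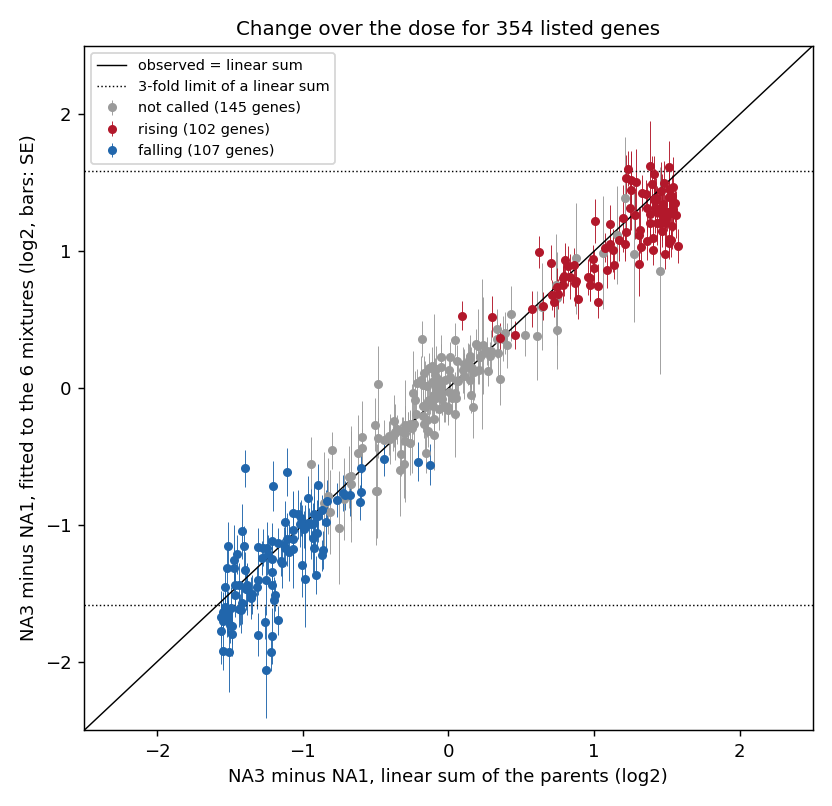
Fitted NA3 minus NA1 difference (vertical axis, log2, bars give the standard error) against the difference given by the linear sum of the parents (horizontal axis) for the 354 listed genes, of which 102 rose, 107 fell and 145 were not called. Rising genes lie mostly under the diagonal. Falling genes reach beyond the dotted line that marks a 3-fold change. Of the rising genes, Camk2a (1.62), Slc32a1 (1.61) and Khdrbs2 (1.60) also passed a 3-fold change.

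The marker genes also gave an apparent neuronal fraction for each array. It is the median over markers of the position between the parents on the linear scale. NA1 came out at 0.293 and 0.315, NA2 at 0.538 and 0.592, and NA3 at 0.791 and 0.820. The means were 0.304 ± 0.015, 0.565 ± 0.038 and 0.805 ± 0.021 (SD, n = 2), all above the stated 0.25, 0.5 and 0.75, and the 3 doses kept their order with no overlap. With rising markers alone, mixture 1 came out at 0.500 for NA2 and at 0.723 for NA3, so not above the stated fractions. The means over both mixtures were then 0.283 at NA1 and 0.771 at NA3, and with falling markers alone NA1 was at 0.346. Exchange of the neuronal parents at NA3 gave 0.822 and 0.789, against 0.791 and 0.820 with the stated parents.

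A sum of 2 parents cannot change by more than 3-fold between fractions of 0.25 and 0.75, or 1.58 on the log2 scale. Fitted differences passed this limit for 49 rising probe sets (15 genes) and 261 falling ones (161 genes). The rising count was 228 without NA3 of mixture 1, 145 without NA3 of mixture 2, 76 without NA1 of mixture 1 and 26 without NA1 of mixture 2. The falling count was 401 without NA1 of mixture 1 and 146 without the block. By more than 2 standard errors, the limit was passed by 0 rising and 24 falling probe sets. Plcxd3, Lgi1 and Cpne4 led the first group, and LOC102548260, Ehd2, Fam111a, Ppic, Soat1 and Cfap100 the second. For Cfap100 the values were 7.26, 8.11, 6.69, 6.98, 5.34 and 6.12, a fall of 1.95 ± 0.16 where the sum gave -1.42.

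The bend that a linear sum leaves on the log2 scale was visible in the medians and not in single genes. A transcript of 1 parent alone would give 0.42 for NA2 taken 2 times minus NA1 and NA3. Markers higher in neurons had a median of 0.28 where the sum of their parents gave 0.32, and markers lower in neurons 0.26 where it gave 0.29. Over all probe sets the median was 0.00. No probe set was called for curvature in limma, with 559 at an unadjusted p under 0.05 and also 0 called with a trended and robust variance.

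Mixtures with further RNA at the same neuronal fraction kept the synaptic genes nearly level. The mean of the 18 synaptic genes was 9.06 and 9.09 at NA2, 9.05 and 9.07 in NAO and 9.01 and 9.02 in NAOM, where astrocytic RNA made up 0.25 and 0.2. In the same order the mean of the 15 astrocyte identity genes was 10.20 and 9.27, then 9.65 and 8.86, then 9.45 and 8.85. Lysosome genes went the other way, from 10.41 and 10.38 to 10.87 and 10.77 and then 11.33 and 11.16, as did the 14 microglia genes, from 4.72 and 4.71 to 7.62 and 7.66 and then 8.80 and 8.64. These means are descriptions without a test.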

How the data were processed

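RNA was extracted with TRIzol, cleaned on RNeasy columns and labelled with biotin by in vitro transcription, per the labels' protocols. The deposited log2 expression values were made by the authors with RMA in the affy package, per the submitters' processing notes. Versions, and whether the 26 arrays were normalized together, are not given in the sources used here. RMA gives arrays a common distribution and can compress bright signals. The values carry no depth or detection call, and precision is limited by how many arrays there are.

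Of 31099 probe sets 57 were controls, and the remaining 31042 all entered the fits, dim ones included. A single symbol was attached to 20826, several to 436 and none to 9780, and 20758 matched RefSeq identifiers. Each of 14217 genes was taken at its brightest probe set on average. All models were fitted in limma 3.58.1 under R 4.3.3 with moderated variances, and tested on simulated data. The mixture number is a block because the labels tie it to shared parents; residuals of same-numbered arrays correlated at 0.87 (NA1 and NA2), 0.48 (NA1 and NA3) and 0.57 (NA2 and NA3). The linear sum is log2 of the fraction-weighted sum of linear parent values. Summaries used Python 3.11.15, pandas 2.3.3, numpy 2.4.6 and matplotlib 3.10.9.

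Genes were named as members of 29 lists or for the largest slopes (12 each way), mixture differences (8), slope differences (6) and excesses over the 3-fold limit (6). The rule also covered curvatures and deviations, of which none was called. Ube2d1, Krt19 and the genes that differed between the neuronal parents were named after their values were seen. Members, lists and tests were chosen with earlier results of these data known. Alternatives were no block, median centring, quantile normalization of the 6 arrays, removal of the dimmest 25% of probe sets, a trended and robust variance, other parents and markers, and leaving out arrays. Leaving out both arrays of NA3 or of NA1, the 2 standard error limit and the exchanged parents were added after seeing the data.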

Additional observations from a re-analysis of the deposited data

Results flagged for a closer look

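The slope on the neuronal fraction differed between mixture 1 and mixture 2 for 1372 probe sets by the interaction test in limma, and the genes with the largest differences are given here. Values are mixture 2 minus mixture 1 in the NA3 minus NA1 difference, on the log2 scale.

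Among genes with a higher slope in mixture 2, Ccno, a cyclin-like gene of multiciliated cells, differed by 2.6 ± 0.29 (adjusted p = 0.015), and Drc1, a subunit of the dynein regulatory complex, by 2.46 ± 0.46. Spmip6, named for sperm microtubules, differed by 2.49 ± 0.20 and Riiad1 by 2.42 ± 0.24. The linear sum of the parents gave 1.37, 1.36, 1.45 and 1.45 for these genes in turn. Adra2a, an adrenergic receptor, differed by 2.75 ± 0.26 (adjusted p = 0.012), with 9.13, 8.73 and 7.76 in mixture 1 and 5.75, 6.43 and 7.13 in mixture 2, where the sum gave 1.35. Cyp4f4, a fatty acid hydroxylase, differed by 2.31 ± 0.25.

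With a lower slope in mixture 2, Syt1 differed by -3.57 ± 0.58 (adjusted p = 0.023) and Cyria by -3.37 ± 0.67 (adjusted p = 0.037), where the sum gave 0.11 and 1.02. Sprn, a prion-like protein of neurons, differed by -2.57 ± 0.37 and gave 4.67, 5.22 and 6.66 in mixture 1 and 5.71, 5.72 and 5.13 in mixture 2. Dpysl3 differed by -2.52 ± 0.47 and Ddx3x-ps1 by -2.58 ± 0.50. Hmcn1, a large matrix protein, differed by -2.58 ± 0.51, as it fell from 6.72 to 3.92 in mixture 2 and lay between 3.16 and 3.37 in mixture 1. The sum gave -1.37 for Hmcn1. At NA3, 24 of the 69 probe sets that differed between the neuronal parents followed them. The number of called slope differences depended on single arrays, those of NA3 included, as given above. How far the NA3 arrays account for the differences of the genes listed here was not tested.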

How the results depend on the processing

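Without the replicate block, slopes were called for 4447 probe sets (1555 falling), and 146 falling probe sets passed the 3-fold limit; 24 falling and 0 rising did so by more than 2 standard errors. Without both NA3 arrays the calls were 4121 (2285 rising, 1836 falling), and 0, 0 and 0 without both NA1 arrays. Leaving out 1 array or all arrays of a mixture number gave 5175 to 9552 slope calls (2503 to 4937 rising). Leaving out 1 array gave 26 to 228 rising and 238 to 401 falling probe sets past the limit. Mixture differences ranged from 833 to 4417 (472 to 1956 higher, 361 to 2461 lower) and were 4852 (2204 and 2648) without both NA3 arrays. Slope differences ranged from 0 to 2708 (0 to 1271 higher, 0 to 1437 lower). Deviations numbered 933 (932 above, 1 below) with a mean of log2 values in place of the linear sum, and 35 (31 and 4) with a trended and robust variance. With the means of all 4 cultures as parents the apparent fractions were 0.337, 0.614 and 0.842, with rising markers 0.283 at NA1 and 0.771 at NA3, and with falling markers 0.346 at NA1. The causes were not tested.

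Over 391 named genes, 5168 of 5842 recomputed differences kept their side of the threshold, 502 lost the call, 157 gained it and 15 reversed. A reversal was counted only where the gene was called in the main or the recomputed fit. Differences called in neither fit were counted as kept, whatever their sign. The NA3 minus NA1 differences that reversed did so when arrays were left out and ranged over those settings from -1.36 to 1.39 for Adra2a, -1.08 to 0.49 for Apoe, -0.93 to 0.55 for Calb1, -1.33 to 2.04 for Cyria, -1.01 to 1.51 for Dpysl3, -1.49 to 0.72 for Igf1, -0.78 to 0.71 for Lcn2, -0.97 to 0.69 for Olig1, -1.19 to 1.30 for Postn, -1.85 to 0.57 for Riiad1, -1.52 to 0.97 for Spmip6, -0.58 to 1.99 for Sprn, -0.93 to 2.65 for Syt1 and -0.55 to 1.17 for Vcan. With 2 arrays per dose, 3 residual degrees of freedom and 2 parent pairs, small slopes, curvatures and deviations of single genes were not resolved.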
